A study of Mus musculus with 6 samples.

Results

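The transcription factors that set the fate of cartilage cells were followed as 10 genes of the deposited gene table: Sox5, Sox6, Sox9, Runx1, Runx2, Runx3, Nkx3-2, Trps1, Foxa2 and Mef2c. They were chosen by gene symbol, and all 10 were found among the 26969 genes of the table. Poly(A) RNA of wild-type mouse chondrocytes, the cells of cartilage, had been sequenced in 6 libraries, 3 in a group described as mAC and 3 in a group described as mAC_Mito. The series compares chondrocytes with chondrocytes given mitochondria, which its title traces to osteocytes, the cells embedded in bone. The labels disagree on which group received them: libraries described as mAC_Mito are titled and annotated as vehicle, and libraries described as mAC as mitochondria. The groups therefore keep their description names, every difference is mAC_Mito minus mAC, and none is given a treatment direction. No age, strain, dose or time is stated in the labels, and the extraction protocol speaks of adipose tissue where the cell type label says chondrocytes.

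Chondrocyte identity is built on a trio of SOX proteins. SOX9 binds enhancers of cartilage matrix genes such as Col2a1 and Acan, and SOX5 and SOX6, which lack an activation domain of their own, bind beside it and strengthen its action. RUNX proteins bind DNA together with CBFB. RUNX2, with help from RUNX3, MEF2C and FOXA2, drives chondrocyte hypertrophy, the enlargement that precedes bone formation, while NKX3-2 and TRPS1 are repressors that act earlier in the lineage.

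The libraries held 59116068 to 68378213 counts. Chondrocyte markers were present in every library: the summed FPKM of 7 of them (Col2a1, Acan, Col9a1, Col11a2, Matn1, Hapln1 and Cnmd) ran from 2020 to 2380 in mAC and from 1922 to 2789 in mAC_Mito. FPKM divides a count by the length of the gene's exons and by the size of the library. The 11 skeletal muscle markers measured summed to 30.9 to 45.7 FPKM in mAC and 40.1 to 46.6 in mAC_Mito, and the 9 blood cell markers to 11.6 to 14.8 and 13.5 to 19.7. The 8 osteoblast and osteocyte markers summed to 12.2 to 13.8 FPKM in mAC and 15.7 to 17.2 in mAC_Mito. These ranges do not overlap, but without Bglap2, an osteocalcin gene, the sums were 11.2 to 12.33 and 12.28 to 13.2 FPKM and overlapped, a check chosen after seeing the data. The osteocyte genes Dmp1 and Sost had 0 to 20 and 0 to 8 counts per library. No marker list had a gene at 0 in all 6 libraries. The 8 endothelial markers summed to 1.41 to 1.62 and 1.38 to 1.57 FPKM, and the 9 epithelial and endoderm markers to 2.03 to 2.81 and 1.91 to 2.17. Several fate factors are also made by muscle, bone or blood cells, and the part of these cells in the values below was not tested. In bulk RNA, fewer cells of a type and less RNA per cell cannot be told apart.

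Because the SOX and RUNX members belong to families and others have close relatives, the transcripts were searched for exact runs that reads could share. Over 10 pairs of relatives in the GENCODE M21 transcripts, the longest shared run was 17 to 44 bases and no word of 50 bases was shared. The runs below, all in coding sequence, are the longest of Sox9 with its relative Sox10, of Runx1 with Runx3 and of Sox5 with Sox6, and they show where the families are hardest to tell apart. They are written 5′ to 3′ in the sense of the transcript.
Sox9 and Sox10: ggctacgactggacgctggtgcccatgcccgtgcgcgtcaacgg
Runx1 and Runx3: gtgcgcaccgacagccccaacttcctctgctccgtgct
Sox5 and Sox6: cagcaacagatccagcaggttca
An error-free read longer than the longest run can match only a single gene of its pair. The relatives of Sox9 were also at low levels, with Sox8 at 0.878 ± 0.16 FPKM in mAC and 0.858 ± 0.0966 in mAC_Mito and Sox10 at 0.32 ± 0.0917 and 0.47 ± 0.118 (SD, n = 3).

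Promoter sequence was examined for the letters that RUNX proteins recognise, since RUNX proteins are known to bind promoters of RUNX genes. The RefSeq table of GRCm38.p6 holds windows for 8 of the 10 genes, 19 windows in all. In the 250 bases before each start, TGTGGT or its reverse complement ACCACA was found in 4 of these windows, against 14.0% of 32851 windows of all genes. Those 4 windows belong to Runx2, Runx3 and Sox6. Sox6 alone has 6 of the 19 windows. The 2 windows of Runx1 and the other window of Runx3 had no match. With so few windows, 4 of 19 cannot be read as above the share of all windows. The Runx2 window (chr17:44814628-44814877, minus strand) and the Runx3 window at the more distal of its 2 starts (chr4:135120395-135120644, plus strand) are printed 5′ to 3′ on the strand of the gene, with the matches in capitals.
Runx2: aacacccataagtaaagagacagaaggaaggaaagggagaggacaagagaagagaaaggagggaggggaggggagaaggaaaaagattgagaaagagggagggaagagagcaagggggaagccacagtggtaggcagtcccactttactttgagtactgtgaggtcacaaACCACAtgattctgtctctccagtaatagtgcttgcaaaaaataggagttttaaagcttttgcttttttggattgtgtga
Runx3: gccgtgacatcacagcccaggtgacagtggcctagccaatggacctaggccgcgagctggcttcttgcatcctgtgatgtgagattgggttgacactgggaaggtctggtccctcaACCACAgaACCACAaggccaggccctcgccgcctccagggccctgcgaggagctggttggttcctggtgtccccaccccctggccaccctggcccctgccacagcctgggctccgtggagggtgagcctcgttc
The match of Runx2 begins 80 bases before the RefSeq start, and the pair in Runx3 begins 134 and 126 bases before its own RefSeq start. The Runx2 gene of the deposited table reaches 44814797, inside the printed window. By that position the Runx2 match lies within the gene and not before it. The letters AACAAT, or ATTGTT, a core recognised by SOX proteins, were in 1 of the 19 windows, a window of Sox6, against 9.42% of all windows. The letters CTA and TAG with any 4 bases between them read the same on both strands. This pattern is looser than the core of MEF2 proteins, whose middle bases are A or T. It was also in 1 window, again of Sox6, against 3.2% of all windows, and the middle bases there were TTTC. A match describes the sequence and not a bound site. No match means only that these letters are not in the window.

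All 10 genes passed the filter on low counts, so each was compared between the groups with edgeR's quasi-likelihood test over 17645 genes. No member passed a Benjamini-Hochberg adjusted p of 0.05, where 0.0113% of all genes tested did, 0.00567% higher and 0.00567% lower. The adjusted p was 0.99992 for every member. At an unadjusted p under 0.05 there was 1 member, Sox6, higher in mAC_Mito, against 3.19% of all genes tested in either direction and 2.1% higher. The FPKM of the groups did not overlap for 1 member, Sox5, higher in mAC_Mito, against 7.31% in either direction, 3.76% higher and 3.54% lower. With 10 members, 1 is the smallest count above 0, so a share of 1 in 10 cannot be read as above those backgrounds. The median log2 fold change of the members was 0.11, beside 0.0016 over all genes tested, with 6 members above 0 where 50.4% of all genes were. The members ran from -0.64 for Foxa2 to 0.31 for Runx2.

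**Figure D1:**
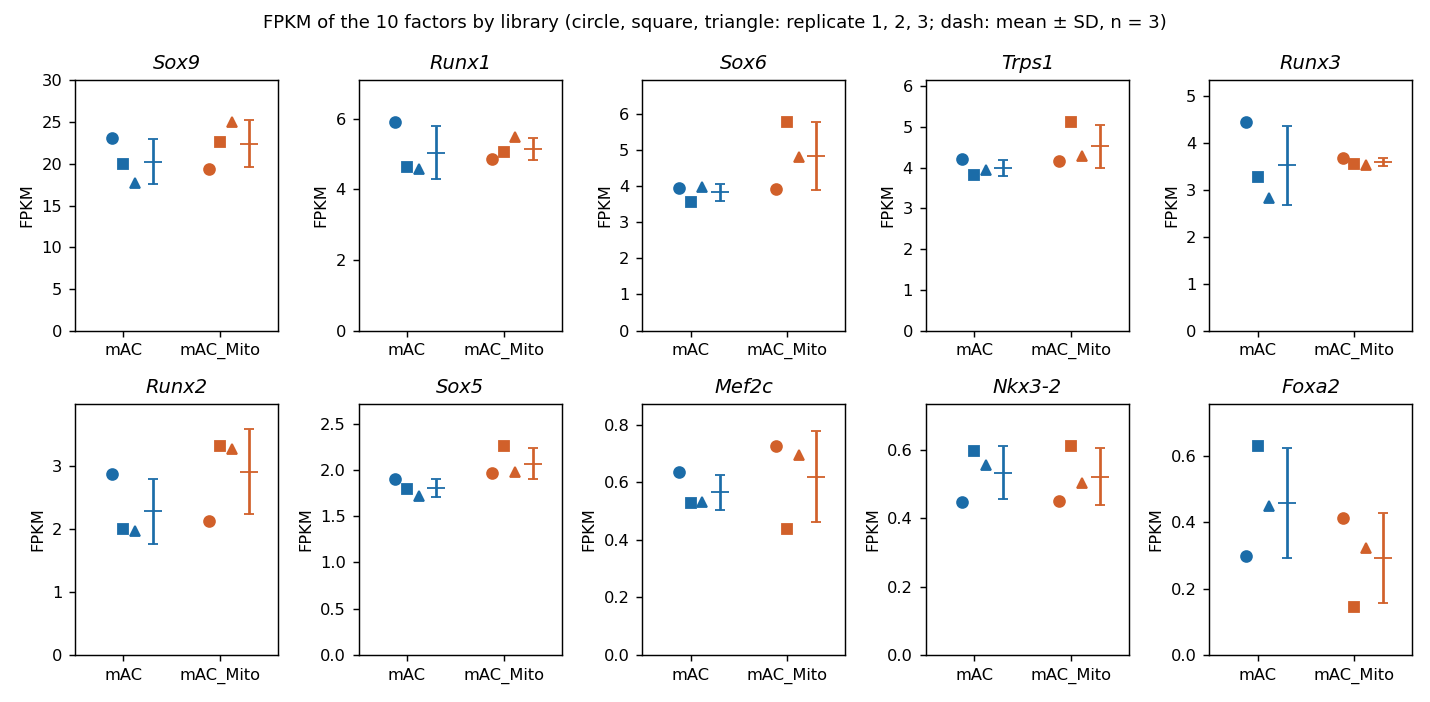
FPKM of the 10 factors in each library (vertical axes from 0, 1 panel per gene), with mAC in blue and mAC_Mito in orange; symbols are replicates and dashes with bars are the mean ± SD (n = 3). The groups overlap in every panel except that of Sox5, where mAC_Mito ran from 1.97 to 2.26 FPKM and mAC from 1.71 to 1.90.

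Sox9 (ENSMUSG00000000567; chromosome 11, 112782224 to 112787760, plus strand, in GRCm38 as for all positions here), the master regulator of the chondrocyte, was the most abundant member. It was at 23.1, 19.98 and 17.7 FPKM in mAC 1, 2 and 3 and at 19.4, 22.7 and 25.1 FPKM in mAC_Mito 1, 2 and 3, from 5228 to 7202 counts per library. The lowest library was mAC 3 and the highest mAC_Mito 3, and the groups overlapped. Its level exceeded that of 88.1% of the genes tested. Its log2 fold change was 0.11 (SE 0.14; 95% interval -0.21 to 0.43). Without mAC 3 it was -0.0063 and without mAC 1 it was 0.27.

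Sox5 (ENSMUSG00000041540; chromosome 6, 143828425 to 144781919, minus strand) and Sox6 (ENSMUSG00000051910; chromosome 7, 115470872 to 116031047, minus strand) encode the coactivating pair of the trio. Sox5 was at 1.90, 1.79 and 1.71 FPKM in mAC and 1.97, 2.26 and 1.98 FPKM in mAC_Mito 1, 2 and 3. Each mAC_Mito library was above each mAC library, the nearest being 1.97 against 1.90. For Sox5 the fitted log2 fold change was 0.17 (SE 0.11), with a 95% interval from -0.08 to 0.43. It was 0.26 without mAC 1 and 0.11 without mAC 3. Sox6 was at 3.95, 3.56 and 3.97 FPKM in mAC and 3.92, 5.79 and 4.81 FPKM in mAC_Mito. mAC_Mito 2 and 3 were above all mAC libraries, whereas mAC_Mito 1 was below mAC 1 and mAC 3. For Sox6 the fitted log2 fold change was 0.31 (SE 0.13), with a 95% interval from 0.02 to 0.60 (edgeR unadjusted p = 0.0386, adjusted p = 0.99992). Without mAC_Mito 2 it was 0.19. Sox6 was the member with the lowest unadjusted p, and it did not pass with adjustment.

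**Figure D2:**
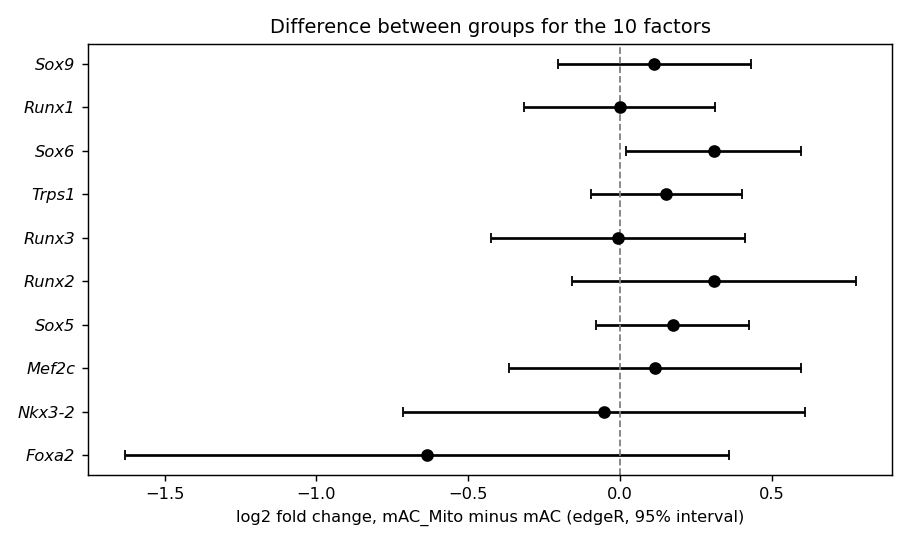
Log2 fold change of each factor, mAC_Mito minus mAC (horizontal axis), with its 95% interval from the edgeR fit (bars); genes are ordered by mean FPKM from the top. The interval of Sox6, 0.02 to 0.60, lies above 0 before adjustment, and that of Foxa2, -1.63 to 0.36, is the widest.

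The balance within the SOX trio was read as the FPKM of Sox9 over the sum of Sox5 and Sox6. This ratio was 3.94, 3.73 and 3.11 in mAC and 3.30, 2.82 and 3.69 in mAC_Mito 1, 2 and 3. Its mean was 3.60 ± 0.431 in mAC and 3.27 ± 0.439 in mAC_Mito (SD, n = 3; two-sided exact permutation p = 0.4, where 3 against 3 cannot go below 0.1). The difference was smaller than the spread within either group. Sox6 exceeded Sox5 in each library, with a ratio of FPKM from 1.99 to 2.56.

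The RUNX family was led by Runx1 (ENSMUSG00000022952; chromosome 16, 92601466 to 92826149, minus strand), best known from blood formation and also made by chondrocyte precursors. Runx1 stood at 5.92, 4.63 and 4.58 FPKM in mAC and 4.87, 5.07 and 5.50 FPKM in mAC_Mito 1, 2 and 3. Runx3 (ENSMUSG00000070691; chromosome 4, 135120652 to 135177990, plus strand), which shares the control of chondrocyte maturation with Runx2, was at 4.45, 3.27 and 2.83 FPKM in mAC and 3.67, 3.54 and 3.52 FPKM in mAC_Mito. For both genes mAC 1 was the highest library and mAC 3 the lowest, with the 3 mAC_Mito libraries between them. Their log2 fold changes were -0.0020 (95% interval -0.32 to 0.31) and -0.0066 (-0.43 to 0.41). Under library size scaling and both limma fits the sign of both was positive, and without mAC 1 the values were 0.19 and 0.26. mAC 1 was also the library with the highest share of counts from the mitochondrial genome, 7.38% against 2.95% to 5.66% in the other 5, and the part of this in the Runx1 and Runx3 values was not tested. The summed FPKM of the blood cell markers was 14.8, 14.3 and 11.6 in mAC and 15.7, 13.5 and 19.7 in mAC_Mito 1, 2 and 3, lowest in mAC 3, as Runx1 and Runx3 were, and highest in mAC_Mito 3. The part of such cells in their values was not tested.

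Runx2 (ENSMUSG00000039153; chromosome 17, 44495987 to 44814797, minus strand), required for hypertrophic cartilage and for osteoblasts, was at 2.87, 1.996 and 1.96 FPKM in mAC and 2.13, 3.31 and 3.27 FPKM in mAC_Mito 1, 2 and 3. Its values form an upper set of mAC 1, mAC_Mito 2 and mAC_Mito 3 and a lower set of the other 3, which cuts across the groups. Its log2 fold change was 0.31 (SE 0.21; 95% interval -0.16 to 0.78), and it was 0.57 without mAC 1, 0.20 without mAC 2 and 0.18 without mAC 3. The summed FPKM of the osteoblast and osteocyte markers was 12.2, 13.7 and 13.8 in mAC and 17.2, 15.7 and 15.8 in mAC_Mito 1, 2 and 3. This sum was lowest in mAC 1, where Runx2 was high, and highest in mAC_Mito 1, where Runx2 was low. In mAC_Mito 2 and 3, where Runx2 was highest, it was above each mAC library. Of the 6 bone markers tested, 1 did not overlap between the groups, Bglap2, against 7.31% of all genes. The log2 fold change of Bglap2 was 1.296, with a 95% interval from 0.565 to 2.027 (edgeR unadjusted p = 0.00288, adjusted p = 0.99992). The related Bglap, at 13 to 25 counts per library, had a log2 fold change of -0.15. Its 95% interval, -1.32 to 1.03, was wide and overlapped that of Bglap2. The part of such cells in the Runx2 values was not tested. Runx2 varied more than Runx1 or Runx3: the standard deviation of its log2 CPM (counts scaled to library size) over the 6 libraries was 0.36, higher than in 71.7% of genes tested, beside 0.19 for Runx1 and 0.27 for Runx3.

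Reads of Runx2 can be hard to assign because its locus overlaps other genes. Supt3, a transcription coactivator subunit on the opposite strand at chromosome 17, 44777152 to 45119290, spans the Runx2 start. Supt3 had 715, 1128 and 841 counts in mAC and 1004, 682 and 846 in mAC_Mito 1, 2 and 3, where Runx2 had 1795, 1395 and 1242 and then 1438, 1987 and 2012. The libraries with fewest Supt3 counts, mAC_Mito 2 and mAC 1, were among the 3 with most Runx2 counts. The antisense genes Runx2os1 and Runx2os2 had 16 to 66 and 0 to 15 counts per library. Whether counting used strand is not stated in the labels or headers. The part of these genes in the Runx2 values was not tested. Overlapping genes of the other members, antisense genes at Sox5, Runx1 and Runx3 and a microRNA gene inside Trps1, had at most 4 counts in a library.

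Runx2 took 21.7%, 20.2% and 20.9% of the summed RUNX FPKM in mAC and 19.9%, 27.8% and 26.6% in mAC_Mito 1, 2 and 3. The means were 20.9% ± 0.755 and 24.8% ± 4.24 (SD, n = 3; two-sided exact permutation p = 0.4). Runx2 took a larger share in mAC_Mito 2 and 3 than in the other 4 libraries, which lay between 19.9% and 21.7%, although Runx2 itself was also high in mAC 1. Runx1 held the largest share in each library, from 42.5% to 48.9%. Set against Sox9, the ratio of Sox9 to Runx2 FPKM was 8.05, 10.01 and 9.02 in mAC and 9.14, 6.84 and 7.66 in mAC_Mito. Its mean was 9.03 ± 0.982 and 7.88 ± 1.16 (SD, n = 3; two-sided exact permutation p = 0.3), with overlapping groups.

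**Figure D3:**
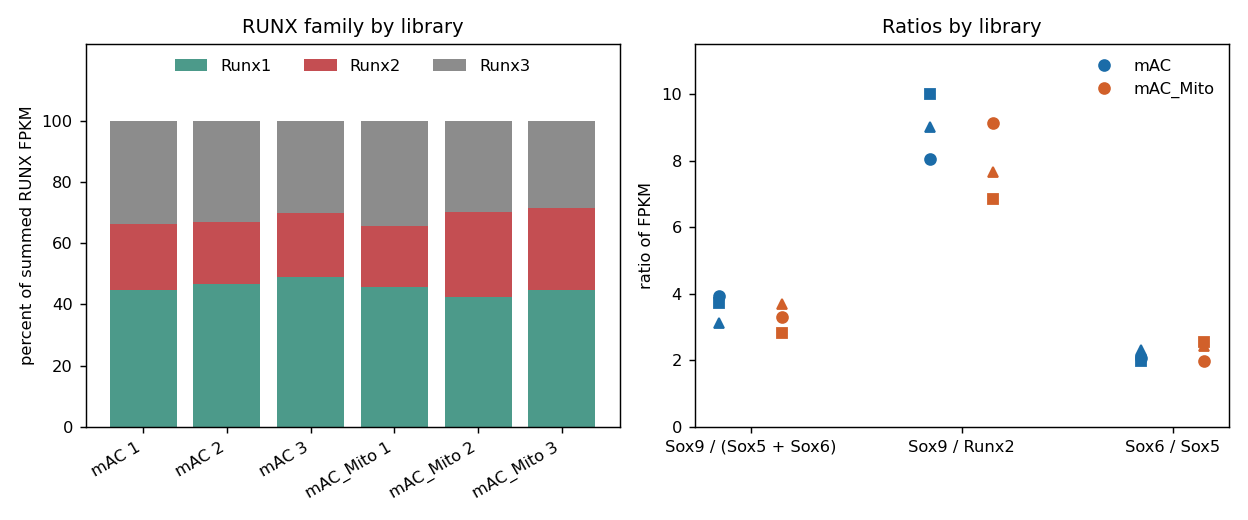
Left, share of each RUNX gene in the summed FPKM of Runx1, Runx2 and Runx3 by library (percent, bars stacked to 100); right, ratios of FPKM by library, mAC in blue and mAC_Mito in orange, with circle, square and triangle for replicates 1, 2 and 3. The Runx2 share is 27.8% and 26.6% in mAC_Mito 2 and 3 and at most 21.7% in the other libraries.

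Trps1 (ENSMUSG00000038679; chromosome 15, 50654752 to 50890463, minus strand), a GATA-type repressor mutated in tricho-rhino-phalangeal syndrome, was at 4.21, 3.83 and 3.94 FPKM in mAC and 4.15, 5.13 and 4.28 FPKM in mAC_Mito 1, 2 and 3. Only mAC_Mito 2 stood clear of the other libraries, and mAC 1 lay above mAC_Mito 1. The fitted difference was 0.15 log2 units (SE 0.11; 95% interval -0.10 to 0.40), and 0.24 without mAC 1 and 0.08 without mAC_Mito 2. Nkx3-2 (ENSMUSG00000049691; chromosome 5, 41761483 to 41764501, minus strand), a homeodomain repressor that keeps chondrocytes immature and restrains Runx2, had only 55 to 81 counts per library. It was at 0.447, 0.597 and 0.554 FPKM in mAC and 0.449, 0.612 and 0.503 FPKM in mAC_Mito, so that the groups overlapped throughout. Its log2 fold change was -0.05, and the 95% interval, -0.71 to 0.61, was wide at this depth.

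Mef2c (ENSMUSG00000005583; chromosome 13, 83504034 to 83667078, plus strand), which acts with Runx2 on hypertrophy genes such as Col10a1 and also works in muscle and endothelium, was at 0.637, 0.529 and 0.532 FPKM in mAC and 0.727, 0.439 and 0.694 FPKM in mAC_Mito 1, 2 and 3. mAC_Mito held both the highest library, mAC_Mito 1, and the lowest, mAC_Mito 2. Its fitted difference was 0.12 log2 units (95% interval -0.37 to 0.60), -0.06 without mAC_Mito 1 and 0.33 without mAC_Mito 2. Its relatives Mef2a and Mef2d were at 3.35 ± 0.391 and 8.91 ± 1.48 FPKM in mAC and at 3.41 ± 0.241 and 9.43 ± 1.10 in mAC_Mito (SD, n = 3). All 10 muscle markers tested had a log2 fold change above 0, none past the threshold. Their summed FPKM, with Myf5, was 30.9, 39.3 and 45.7 in mAC and 46.3, 40.1 and 46.6 in mAC_Mito 1, 2 and 3. This sum was lowest in mAC 1, where Mef2c was above the other mAC libraries. It was highest in mAC_Mito 3 and mAC_Mito 1, the libraries with most Mef2c. The blood cell markers summed highest in mAC_Mito 3 and mAC_Mito 1, at 19.7 and 15.7 FPKM, and lowest in mAC 3, at 11.6. The part of muscle or blood cells in the Mef2c values was not tested.

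Foxa2 (ENSMUSG00000037025; chromosome 2, 148042877 to 148046969, minus strand), a forkhead factor of endoderm that is also used in hypertrophic chondrocytes, was the least abundant and the most variable member. It had 50, 119 and 76 counts in mAC and 75, 24 and 53 in mAC_Mito 1, 2 and 3, or 0.297, 0.631 and 0.448 and then 0.412, 0.145 and 0.321 FPKM. mAC 2 and mAC_Mito 2 were the extremes, 4.35-fold apart in FPKM, and the remaining libraries of both groups interleaved. The standard deviation of its log2 CPM over 6 libraries, 0.69, was above that of 89.5% of genes tested. On the log2 scale the groups differed by -0.64 (SE 0.44; 95% interval -1.63 to 0.36), by -0.31 without mAC_Mito 2, by -0.34 without mAC 2 and by -1.01 without mAC_Mito 1. Foxa1 had no count in 4 libraries and 4 in each of mAC 1 and mAC 2, and the endoderm factor Sox17 had counts in mAC 3 alone, 7 in all.

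Read by library in FPKM, mAC 3 was the lowest for 5 members, and mAC_Mito 2 was the highest for 5 and the lowest for 2, Mef2c and Foxa2. Relative to the 6-library mean of log2 CPM, mAC_Mito 2 stood at 0.38 for Sox6, 0.33 for Runx2, 0.22 for Trps1 and 0.17 for Sox5, but at -0.46 for Mef2c and -1.21 for Foxa2. mAC 1 was the highest library for Runx1 and Runx3, at 0.32 and 0.43. The median standard deviation over the 6 libraries was 0.22 for the members and 0.21 for all genes tested.

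**Figure D4:**
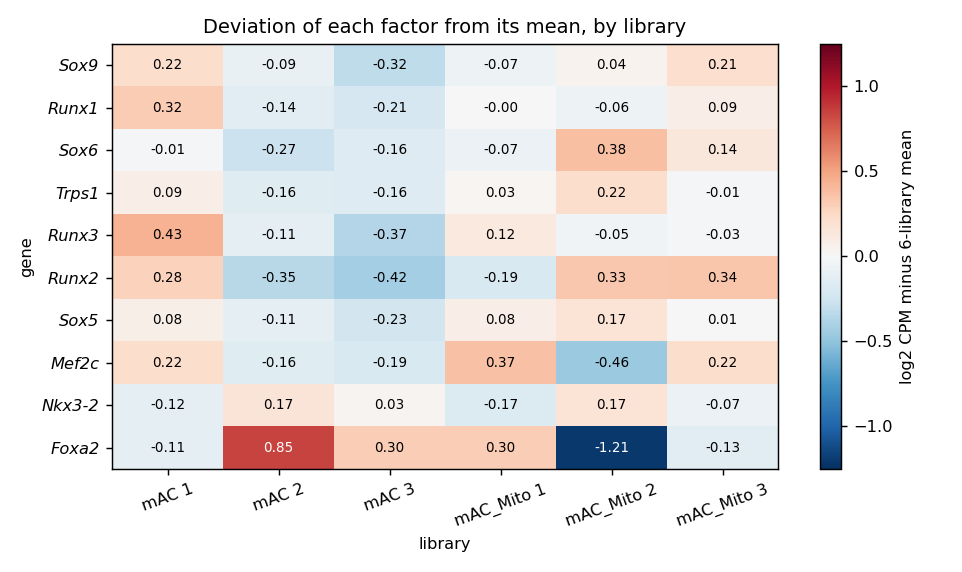
Log2 CPM of each factor minus its mean over the 6 libraries (colour and printed value), with genes ordered by mean FPKM and libraries in columns. mAC_Mito 2 runs from 0.38 for Sox6 to -1.21 for Foxa2, and mAC 1 is at 0.43 for Runx3.

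Levels can be ranked between genes because FPKM is per length. Mean FPKM over the 6 libraries was 21.3 ± 2.74 for Sox9, 5.10 ± 0.526 for Runx1, 4.33 ± 0.823 for Sox6, 4.26 ± 0.460 for Trps1 and 3.55 ± 0.532 for Runx3. It was 2.59 ± 0.637 for Runx2, 1.94 ± 0.189 for Sox5, 0.593 ± 0.111 for Mef2c, 0.527 ± 0.072 for Nkx3-2 and 0.376 ± 0.164 for Foxa2 (SD, n = 6). The order held in all 6 libraries for 4 of the 9 neighbouring pairs: Sox9 over Runx1, Runx3 over Runx2, Runx2 over Sox5, and Sox5 over Mef2c. For those 4 pairs the exact sign-flip permutation p was 0.0312, the smallest that 6 libraries allow, and 0.0703 after Benjamini-Hochberg adjustment over the 9 pairs. Sox9 stood 2.06 ± 0.105 log2 units above Runx1 (SD, n = 6). Sox6 and Trps1 were in that order in 3 of 6 libraries (exact permutation p = 0.875), as were Mef2c and Nkx3-2 (0.5), so neither pair is separated beyond its spread.

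These levels depend on the length that each count is divided by. The lengths implied by count and FPKM were 1.16 to 1.17 times the length of all annotated exons joined, for each of the 10 members, whereas the longest annotated transcript is shorter than the joined exons for all but Sox9 and Nkx3-2. For Mef2c, with 31 annotated transcripts, the joined exons span 15.7 kb and the longest transcript 6.28 kb. For Sox5 the values are 14.4 and 7.24 kb, for Runx2 8.84 and 6.46 kb, and for Sox9, with 1 transcript, 4.13 kb under both. Dividing by the longest transcript, a choice made after seeing the data, moved the mean of Sox5 above that of Runx2, though in only 3 of 6 libraries (exact permutation p = 0.25). The order then held in all 6 libraries for 6 of 9 neighbouring pairs. Their exact permutation p was again 0.0312, the smallest possible, and 0.0469 after adjustment. The adjusted value fell from 0.0703 only because more pairs sat at that smallest p, so it shows no clearer separation. Sox9 stood 1.02 log2 units above Runx1 on that scale. On that scale Mef2c lay above Nkx3-2 in all 6 libraries. The ratio of Sox9 to the sum of Sox5 and Sox6 was 1.99 in mAC and 1.82 in mAC_Mito in place of 3.60 and 3.27. The Runx2 share of the summed RUNX level was then 17.3% in mAC and 20.6% in mAC_Mito, in place of 20.9% and 24.8%. Sox9 over Runx2 was 6.58 and 5.75 in place of 9.03 and 7.88.

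**Figure D5:**
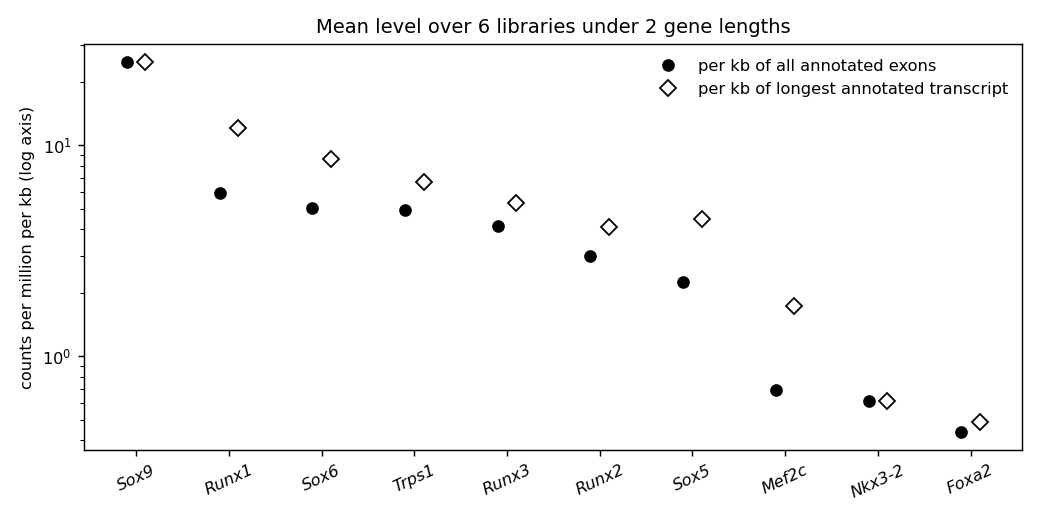
Mean CPM per kilobase over the 6 libraries (log axis) for each factor, with the count divided by the length of all annotated exons (filled circles) or of the longest annotated transcript (open diamonds). Sox9 and Nkx3-2 keep their level, and Mef2c moves from 0.693 to 1.74.

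Relations across libraries were examined for 8 pairs of a member with another member or a target. None passed after adjustment over the 8, the lowest adjusted exact permutation p being 0.315 for r and 0.474 for rho. Sox5 and Sox6 had a Pearson r of 0.75 (exact permutation p = 0.0917) and a Spearman rho of 0.71 (p = 0.136) over 6 libraries. Without mAC 2 and mAC 3 their r was 0.55, and with group means removed 0.53. Sox9 and Sox5 had an r of 0.69 (exact permutation p = 0.118; rho 0.54, p = 0.297), which was 0.66 with group means removed. It was 0.20 without mAC 1 and mAC 3 and 0.26 without mAC 3 alone, on which it rested, but 0.67 without mAC 1 alone. For Sox9 and Sox6 r was 0.52 (exact permutation p = 0.31; rho 0.71, p = 0.136), 0.61 without mAC 1 and mAC 3 and 0.43 with group means removed.

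With its targets, Sox9 had an r of 0.45 for Col2a1, the main cartilage collagen (exact permutation p = 0.372; rho 0.26, p = 0.658), and 0.54 for Acan, the core of the proteoglycan aggrecan (p = 0.279; rho 0.60, p = 0.242). Without mAC 1 and mAC 3 these were 0.82 and 0.76, and with group means removed 0.35 and 0.45. Runx2 had an r of -0.51 with the collagenase Mmp13 (exact permutation p = 0.276; rho -0.49, p = 0.356) and 0.36 with the hypertrophic collagen Col10a1 (p = 0.582; rho 0.54, p = 0.297). Without mAC 2 and mAC 3 these were -0.56 and 0.32, and with group means removed -0.29 and 0.09. Mef2c and Col10a1 had an r of -0.69 (exact permutation p = 0.106; rho -0.26, p = 0.658). It was -0.23 without mAC_Mito 1 and mAC_Mito 2 and -0.14 without mAC_Mito 2 alone, on which it rested, but -0.74 without mAC_Mito 1 alone. With group means removed it was -0.99, a value from 6 libraries for which no p was computed. Mef2c was lowest in mAC_Mito 2, at 0.439 FPKM, where Col10a1 was highest, at 16.9 FPKM against 12.6 to 14.9 in the other libraries.

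Genes with the most similar profile were taken from 6134 named genes with a mean of at least 5 FPKM, by the mean absolute difference of log2 CPM centred on the 6-library mean. For Sox9 they were Lrrc8a, a subunit of volume-regulated anion channels (0.0275), Ski, a repressor of TGF-beta signalling (0.0311), and Zmynd8, a chromatin reader (0.0317). For Runx2 they included Hcfc1 (0.0377) and Rere (0.0543), which encode transcriptional cofactors. For Mef2c they were Lgals9, which encodes galectin-9 (0.0674), Selenop, which encodes a secreted selenoprotein (0.0762), and Rpl7a-ps11, a pseudogene of a ribosomal protein gene (0.078). These are descriptions over 6 libraries.

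Targets and partners of the factors were read from lists of known genes. Of 18 cartilage matrix genes under SOX control, 0 of the 18 tested passed in either direction, 9 had a log2 fold change above 0 and 9 below, and the median was -0.02 beside 0.0016 over all genes tested. Acan had the highest value, 0.43, at 81.1, 64.4 and 79.7 FPKM in mAC and 63.5, 134 and 113 FPKM in mAC_Mito 1, 2 and 3. Matn1, a filament-forming cartilage protein, had the lowest, -0.36, at 3.55 ± 1.05 and 2.79 ± 0.337 FPKM (SD, n = 3). In Acan, mAC_Mito 1 was the lowest library and mAC_Mito 2 and 3 the highest, as in Col2a1, the most abundant gene of the list.

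Of 14 hypertrophy genes under RUNX2, MEF2C or FOXA control, 13 were tested and 0 passed, with 8 above and 5 below 0 and a median log2 fold change of 0.06. Mmp9, the gelatinase of the growth plate, had the highest value, 0.95 (SE 0.36; edgeR adjusted p = 0.99992), at 45, 61 and 34 counts in mAC and 80, 65 and 119 in mAC_Mito. Mmp9 is also made by blood-derived cells such as osteoclasts. Of the 8 blood cell markers tested, 7 had a log2 fold change above 0 and 1, Itgam, did not overlap between the groups, against 7.31% of all genes. The part of such cells in the Mmp9 values was not tested. Panx3, a channel of maturing chondrocytes, had the lowest value, -0.24, and Spp1, the bone matrix protein osteopontin and the most abundant of the list, had -0.19. Ihh, the hedgehog ligand of prehypertrophic cells, had 0 counts in 3 libraries and 4 to 16 in the others, and was not tested.

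Of 22 partners and relatives, 20 were tested and 0 passed, with 14 above and 6 below 0 and a median of 0.08. Cbfb, which encodes the shared partner of all RUNX proteins, was the most abundant. It averaged 38.7 ± 2.75 FPKM in mAC and 39.7 ± 3.62 in mAC_Mito (SD, n = 3), and its fitted difference was 0.01 log2 units (SE 0.09). Cbfb stood above the summed RUNX FPKM, which ran from 9.37 to 13.2 in mAC and 10.7 to 12.3 in mAC_Mito. Sox10 had the highest value of the list, 0.52, at 54 to 126 counts, and Mef2b the lowest, -0.90, at 0 to 40 counts. Of 23 upstream regulators 20 were tested and 0 passed, with 15 above and 5 below 0 and a median of 0.15. Gli1, a target and effector of hedgehog signalling, had the highest value, 0.66, from 0 to 33 counts. Bmp2, a growth factor that induces Sox9 and Runx2, had the lowest, -0.09, at 252 to 294 counts, and the homeobox gene Prrx2, the most abundant, had -0.06.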

How the data were processed

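Counts and FPKM were read for 6 libraries of mouse chondrocytes. The authors deposited raw read counts per gene, without normalization, and FPKM values, per the file headers. Tools in the submitters' processing notes are StringTie 1.3.0, HISAT2 2.0 and Bowtie 0.12.2, and the build there is mm8, without roles. The positions in the table are of GRCm38: of 26902 identifiers shared with GENCODE M21, 23227 had the same position and 25818 shared an end, as did all 10 members. How reads were counted, with or without strand, is not stated there.

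Groups follow the description field. Counts were tested by quasi-likelihood in edgeR (version 4.0.16, under R 4.3.3; TMM scaling; filterByExpr with minimum count 10 and minimum total 15; two-sided; Benjamini-Hochberg over 17645 genes; threshold 0.05), after the script was tested on simulated data. Intervals and standard errors are those implied by the F statistic. Log2 CPM used a prior count of 2. Alternatives were RLE scaling, library size alone, no filter, DESeq2 1.42.0, limma 3.58.1 on log2(FPKM + 1) and log2(FPKM + 0.1), a block on replicate number and leaving out each library. Nothing says that replicates came from separate animals or cultures, so p-values measure the spread among these libraries alone, and that spread may be technical.

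The members, lists and tests were chosen with earlier results of these data known. Named genes were, besides the members, the most abundant gene and the genes with the highest and lowest log2 fold change of each list of targets, partners or regulators, the genes paired with a member, overlapping genes and the 3 most similar profiles, of which 1 for Runx2 is not reported here; Bglap, Bglap2, Sox8, Mef2a, Mef2d, Myf5, Itgam, Dmp1, Sost, Ihh, Foxa1 and Sox17 were named after their values were seen. Mepe, Pax7 and Cd3e were not analysed here.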

Additional observations from a re-analysis of the deposited data

How the results depend on the processing

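No member passed an adjusted p of 0.05 under any of the 13 alternatives, the lowest adjusted p being 0.612. Over the whole table, 1 gene was called higher and 1 lower. The counts were 0 and 0 without a low-count filter, 2 and 2 with DESeq2, and 1 and 0 with limma on log2(FPKM + 1). They ran from 0 to 3 higher and from 0 to 1 lower when each library was left out. Sox5, Sox6, Runx2, Trps1 and Foxa2 kept their sign under all 13.

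The sign of Runx1 (-0.0020) and Runx3 (-0.0066) turned under library size scaling (0.0092 and 0.0072), limma on log2(FPKM + 1) (0.030 and 0.036) and on log2(FPKM + 0.1) (0.036 and 0.049), and that of Runx1 without the filter (0.0042). The cause was not tested. With each library left out, log2 fold changes ran from -0.10 to 0.19 for Runx1, -0.17 to 0.26 for Runx3, -0.0063 to 0.27 for Sox9, -0.16 to 0.018 for Nkx3-2, -0.056 to 0.33 for Mef2c, 0.11 to 0.26 for Sox5, 0.19 to 0.41 for Sox6, 0.18 to 0.57 for Runx2, 0.08 to 0.24 for Trps1 and -1.01 to -0.31 for Foxa2, and r of Runx2 and Col10a1 from -0.18 to 0.72.

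A block on replicate number left 1 gene higher and 1 lower, with Runx1 at 0.016 and Runx3 at 0.029. Same-numbered libraries correlated at 0.12, -0.06 and -0.012 in their deviations from group means, and mAC 3 correlated best with mAC_Mito 2 (0.15), so the numbers were not taken as pairs. Foxa2 and Nkx3-2 had at most 119 counts in a library.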
